A study of Mus musculus with 2 samples.

Results

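The cells described here were chosen by marker counts as classical monocytes of the mouse liver, from droplet single-cell RNA sequencing of liver nonparenchymal cells, the cells left in suspension after hepatocytes are spun down. A barcode was kept when it held at least 500 UMIs (unique molecular identifiers, 1 per captured transcript) and at most 20% mitochondrial UMIs. It also needed at least 5 UMIs of Ly6c2, Chil3, Vcan and F13a1 together, and these had to exceed 4 times the UMIs of the macrophage genes Gpnmb, Trem2, Ms4a7 and C3ar1. Barcodes with any UMI of the Kupffer cell genes Clec4f or Timd4, of the neutrophil genes Retnlg or Cxcr2, or of the lymphocyte genes Cd79a or Cd3e were left out. The rule chose 276 of 4253 barcodes in the library labelled yap1 and 323 of 4893 in the library labelled WT, 599 of 9146 in all.

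The yap1 library came from C57BL/6 mice with a floxed Yap1 gene and a Lyz2-driven Cre, and the WT library from wild-type C57BL/6 mice. Both groups had received CCl4 4 times, as a model of liver fibrosis, and neither library is from untreated liver. Each library pools 3 mice with no value per mouse, so every comparison below sets 1 library against 1 library. It has no replicate check and no test.

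Classical monocytes leave the bone marrow through Ccr2, carry high Ly6C on their surface, and enter injured tissue, where many turn into macrophages. In the liver poisoned by CCl4, a solvent that kills hepatocytes, they are the main source of new macrophages around the scar. Yap1 is the transcriptional coactivator that the Hippo kinases hold in check. The Lyz2 promoter drives Cre in monocytes, macrophages and neutrophils alike, so recombination is not limited to the cells described here.

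The files held 34234353 UMIs in 4731 barcodes for yap1 and 30386545 UMIs in 5269 barcodes for WT. The chosen cells held 3695398 UMIs in yap1 and 3449570 in WT, with medians of 13131 and 10586 UMIs per cell. Yap1 itself had 0 UMIs in the chosen cells of either library, where a count of 0 allows up to 3 UMIs. The deletion therefore could not be checked in these cells. Drd2, the receptor named in the study's title, also had 0 UMIs in both. Of the barcode sequences, 5 occurred in both libraries, and they include 0 chosen cells of yap1 and 1 of WT.

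The label fitted only part of the set. Of the 276 yap1 members, 184 held a UMI of Chil3, Vcan or F13a1, which is 66.7% (95% Clopper-Pearson interval 60.8 to 72.2%). Of the 323 WT members, 195 did, or 60.4% (54.8 to 65.7%). The other 92 yap1 and 128 WT members had entered on Ly6c2 alone and are called Ly6c2-only members here. These intervals, like all those given below, cover counting error only.

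Among the members with a Chil3, Vcan or F13a1 UMI, monocyte markers that the rule did not use were common. At least 3 UMIs of the chemokine receptor Ccr2 were found in 145 of 184 yap1 and 145 of 195 WT cells. The same held for haptoglobin, Hp, in 158 yap1 and 171 WT cells. It held for the growth factor receptor Csf1r in 170 yap1 and 156 WT cells. The genes that stood highest in them over all other barcodes were Prtn3, a granule protease of immature myeloid cells, with 213 CPM in yap1 and 306 in WT, then Tppp3, Chil3, F13a1, F10, Plac8 and Fn1. Chil3 and F13a1 were used to choose these cells, so their place among these genes was set by that choice. CPM is the summed UMIs of a gene per 1000000 UMIs of the same cells.

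The Ly6c2-only members looked different. At least 3 UMIs of Siglech, Ccr9 or Klk1, markers of plasmacytoid dendritic cells, were present in 68 of 92 yap1 and 94 of 128 WT cells, against 1 of 184 and 7 of 195 cells with a Chil3, Vcan or F13a1 UMI. Counting T cell and NK cell markers too, 87 of the 92 yap1 and 118 of the 128 WT Ly6c2-only members held at least 3 UMIs of another lineage's markers. Lyz2, the lysozyme of myeloid cells, reached 10 UMIs in 4 yap1 and 3 WT of them. It did so in 179 yap1 and 187 WT cells of the other members. The label therefore goes against the data for the Ly6c2-only members, and what follows is given mainly for the 379 members with a Chil3, Vcan or F13a1 UMI. This division was made after the data had been seen.

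**Figure D1:**
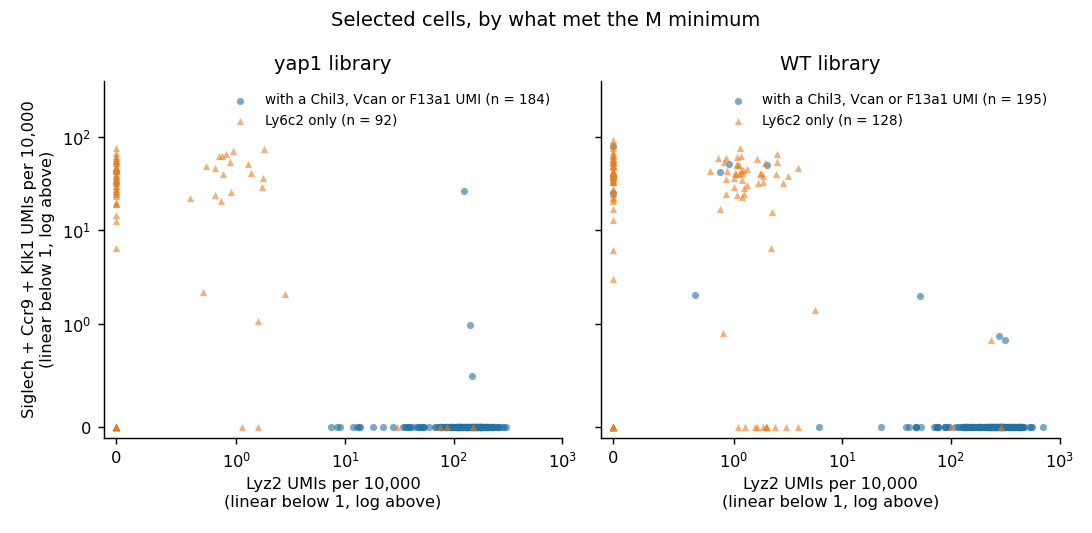
Each point is 1 member, with its Lyz2 level on the x axis and its summed level of Siglech, Ccr9 and Klk1 on the y axis, both in UMIs per 10000 UMIs of the cell, yap1 on the left and WT on the right. The members with a Chil3, Vcan or F13a1 UMI (184 yap1, 195 WT, blue circles) lie at high Lyz2, while the Ly6c2-only members (92 yap1, 128 WT, orange triangles) lie mostly at low Lyz2 and high levels of the 3 other markers.

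The 4 genes of the rule are a description and not a result. In the members with a Chil3, Vcan or F13a1 UMI, Chil3, a chitinase-like secreted protein, had 2344 CPM in yap1 and 2232 in WT. Ly6c2 had 1166 CPM in yap1 and 947 in WT, F13a1, a clotting transglutaminase, 352 and 450, and Vcan, a matrix proteoglycan, 97.7 and 191. At the edge of the rule, 13 yap1 and 18 WT members had exactly 5 marker UMIs, while 8 yap1 and 19 WT barcodes with 4 stayed out. The marker UMIs per member ran from 5 to 284 in yap1, with a median of 31.5, and from 5 to 210 in WT, with a median of 22.

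The chosen cells took a similar share of both libraries. They made up 6.49% of the yap1 barcodes and 6.60% of the WT barcodes, a ratio of 0.983 (0.834 to 1.16). For the members with a Chil3, Vcan or F13a1 UMI the shares were 4.33% in yap1 and 3.99% in WT, a ratio of 1.09 (0.883 to 1.33). Sets of cells with more UMIs of the macrophage genes had share ratios further from level. Intermediate cells, with at least 5 of the marker UMIs and neither sum above 4 times the other, had a share ratio of 1.95 (1.61 to 2.38). Macrophages with mainly Gpnmb, Trem2, Ms4a7 and C3ar1 UMIs had one of 1.69 (1.41 to 2.01). The difference between these ratios was not tested, and shares of 1 suspension per genotype do not give cell numbers per liver. All these sets were chosen by raw counts, and over all barcodes the median was 4707 UMIs in yap1 and 3860 in WT. The part of depth in the share ratios was not tested.

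Most genes were close between the libraries. Over the members with a Chil3, Vcan or F13a1 UMI, 6945 genes had at least 50 UMIs in both libraries together and were compared. Of these, 292 (4.2%) were at least 1.5-fold higher in yap1 and 385 (5.54%) at least 1.5-fold lower, with a median log2 ratio of -0.04. The bound of 1.5-fold is a size and not a test. Over all members, 8180 genes were compared, with 308 (3.77%) higher and 401 (4.9%) lower. The counts of genes below are read against these shares, or against the share given beside them for another set of cells. Counts in smaller subsets, at other marker minimums or after thinning are not read against them.

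The classical monocyte programme outside the rule had a median ratio close to level. Of its 31 compared genes, 3 were at least 1.5-fold higher in yap1 and 3 lower, with a median log2 ratio of -0.04 beside -0.04 over all genes. A subset of the members with a Chil3, Vcan or F13a1 UMI, 40 yap1 and 53 WT cells, was free of markers of other lineages. The chosen genes of B, T, NK, dendritic, endothelial and neutrophil cells were Cd79b, Ms4a1, Trbc2, Trac, Ncr1, Siglech, Flt3, Stab2, Ly6g and Csf3r. Other marker genes, such as Gzma, were not required to be absent. In this subset 2 of 29 genes of the programme were higher and 7 lower, with a median of -0.29. No share or median over all genes is given for this subset, so these counts are a description only. Ccr2 had 908 CPM in yap1 and 863 in WT, a ratio of 1.05 (0.991 to 1.12). Plac8, a small protein abundant in monocytes, had a ratio of 1.07 (1.05 to 1.10), Csf1r 1.14 (1.06 to 1.23), Ms4a4c 0.919 (0.855 to 0.987) and Hp 0.883 (0.842 to 0.925). The 3 higher genes were Ifitm6, Fcgr1 and Sirpb1c, and the 3 lower ones Lyz2, Clec4d and Clec4e.

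Interferon-stimulated genes formed the list with the most genes higher in yap1. Of 29 compared in the members with a Chil3, Vcan or F13a1 UMI, 19 were at least 1.5-fold higher and 0 lower, with a median log2 ratio of 0.88 beside -0.04 over all genes. Over all members 15 of 30 were higher and 1 lower, with a median of 0.58. After thinning to 1000 UMIs per cell 4 genes could be compared in the members with a Chil3, Vcan or F13a1 UMI, with 0 past the bound and a median of 0.20. These genes, induced through the receptors for type I and II interferons, block viral replication or pass on the signal. Ifit2, a binder of viral RNA, had 34.3 CPM in yap1 and 3.93 in WT, a ratio of 8.72 (4.40 to 19.7). Its relative Ifit1 had 41.4 and 7.43 CPM, a ratio of 5.57 (3.32 to 9.90). Rsad2, the antiviral radical enzyme viperin, had 76.0 CPM in yap1 and 14.9 in WT, a ratio of 5.12 (3.55 to 7.59). These transcripts were several times as abundant in the summed UMIs of the yap1 members with a Chil3, Vcan or F13a1 UMI.

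The rest of the list ran from Ifit3, at 77.2 CPM in yap1 and 16.6 in WT (ratio 4.64, 3.27 to 6.75), down to Bst2, a tether of budding viruses, at 0.843 (0.761 to 0.935). Gbp2, a guanylate-binding GTPase, had 88.0 CPM in yap1 and 24 in WT, a ratio of 3.66 (2.72 to 5.0). Isg15, a ubiquitin-like modifier, had 207 and 90.9 CPM, a ratio of 2.28 (1.94 to 2.69). The transcription factor gene Irf7 had 188 CPM in yap1 and 133 in WT, a ratio of 1.41 (1.22 to 1.63). Ifitm3, an antiviral membrane protein of nearly every monocyte, stood at 1.12 (1.09 to 1.15). Outside the list but named among the 12 highest ratios, the oligoadenylate synthetase Oas1a had 98.8 CPM in yap1 and 36.3 in WT, a ratio of 2.72 (2.12 to 3.53).

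The windows of 250 bases before the RefSeq start of 6 of these genes are shown because the letters GAAA, any 2 bases and GAAA again, the core of the element that interferon-activated factors are known to bind, can be seen in them. Windows run 5′ to 3′ along the gene's strand in the GRCm38.p6 build, and capitals mark the matches on either strand, which run together where they overlap. The windows are Ifit1 at chr19:34640639-34640888 on the plus strand, Ifit3 at chr19:34583279-34583528 (plus), Rsad2 at chr12:26456453-26456702 (minus), Gbp2 at chr3:142620413-142620662 (plus), Isg15 at chr4:156200819-156201068 (minus) and the chemokine Cxcl10 at chr5:92348890-92349139 (minus).
Ifit1: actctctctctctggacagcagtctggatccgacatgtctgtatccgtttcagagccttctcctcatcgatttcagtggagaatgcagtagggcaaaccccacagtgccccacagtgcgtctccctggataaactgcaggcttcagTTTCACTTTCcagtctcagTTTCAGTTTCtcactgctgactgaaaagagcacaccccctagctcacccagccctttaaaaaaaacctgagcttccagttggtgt
Ifit3: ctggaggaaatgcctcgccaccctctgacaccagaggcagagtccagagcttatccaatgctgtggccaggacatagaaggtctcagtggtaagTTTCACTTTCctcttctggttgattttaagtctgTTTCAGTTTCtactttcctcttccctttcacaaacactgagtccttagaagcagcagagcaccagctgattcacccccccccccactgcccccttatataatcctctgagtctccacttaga
Rsad2: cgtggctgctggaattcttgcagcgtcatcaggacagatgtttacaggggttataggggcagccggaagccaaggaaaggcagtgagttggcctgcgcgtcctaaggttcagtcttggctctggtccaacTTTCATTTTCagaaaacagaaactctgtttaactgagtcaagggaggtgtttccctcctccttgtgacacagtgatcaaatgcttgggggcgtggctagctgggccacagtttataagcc
Gbp2: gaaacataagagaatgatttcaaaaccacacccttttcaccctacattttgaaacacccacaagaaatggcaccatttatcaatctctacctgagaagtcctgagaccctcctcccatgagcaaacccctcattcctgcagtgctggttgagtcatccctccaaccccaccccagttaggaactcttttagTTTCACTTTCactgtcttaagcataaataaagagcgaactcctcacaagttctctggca
Isg15: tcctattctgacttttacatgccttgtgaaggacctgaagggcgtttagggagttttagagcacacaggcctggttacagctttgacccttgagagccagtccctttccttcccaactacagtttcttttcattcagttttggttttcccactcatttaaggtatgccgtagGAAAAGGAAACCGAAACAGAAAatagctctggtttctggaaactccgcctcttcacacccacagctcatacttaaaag
Cxcl10: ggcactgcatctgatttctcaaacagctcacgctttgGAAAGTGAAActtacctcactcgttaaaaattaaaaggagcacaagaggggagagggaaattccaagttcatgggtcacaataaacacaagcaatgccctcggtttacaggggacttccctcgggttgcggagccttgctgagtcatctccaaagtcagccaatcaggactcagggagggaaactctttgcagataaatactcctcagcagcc
The letters occurred in 16 of the 28 interferon-stimulated genes with a RefSeq window (57.1%), beside 936 of 27025 genes in all (3.46%). They were in 9 of the 16 genes of the list at least 1.5-fold higher in yap1 and in 4 of the other 7 compared, so the match did not separate higher genes from the rest. Ifit2 had no match in its 2 windows, and neither did any of the 8 MHC class II genes with a window. A match describes these letters only and is not evidence of binding.

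Few cells carried the difference in the strongest of these genes. Ifit1, Ifit2, Ifit3 and Rsad2 together reached 5 UMIs in 19 of 184 yap1 cells and in 2 of 195 WT cells. The 19 cells held 91.5% of the yap1 UMIs of the 4 genes, up to 117 in 1 cell, and the 2 WT cells held 39.8%, up to 30. All 19 had at least 3 Lyz2 UMIs, 17 had at least 3 Ccr2 UMIs, 16 at least 3 Isg15 UMIs, and 0 had 3 UMIs of Siglech, Ccr9 or Klk1. These cells carried monocyte markers together with UMIs of interferon-stimulated genes.

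At any depth, more yap1 cells held a UMI of the 4 genes. The share was 29.9% (23.4 to 37.1%) of yap1 and 16.4% (11.5 to 22.4%) of WT cells. After every cell had been thinned to 5000 UMIs it was 19.4% (13.8 to 26.1%) of 175 yap1 cells and 9.55% (5.66 to 14.9%) of 178 WT cells. In B cells, which give the level from free RNA and from their own expression, it was 4.95% (3.54 to 6.70%) in yap1 and 2.15% (1.38 to 3.18%) in WT before thinning, at medians of 4411 and 3659 UMIs per cell. At 5000 UMIs it was 10% (6.37 to 14.7%) of the 220 yap1 and 3.95% (1.46 to 8.39%) of the 152 WT B cells that deep. T cells held a UMI of the 4 genes in 16.5% (12 to 21.9%) of yap1 and 5.77% (3.26 to 9.34%) of WT cells, and at 5000 UMIs in 12.6% (7.96 to 18.6%) and 6.61% (2.90 to 12.6%). The share was thus higher in yap1 in lymphocytes too, and the part of free RNA in it was not tested. Over the whole list the typical cell differed little, with a median of 62.0 UMIs per 10000 in yap1 and 58.7 in WT.

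Over the whole interferon list, the other sets of cells from the same libraries differed among themselves. In the Ly6c2-only members 0 of 16 compared genes were at least 1.5-fold higher in yap1 and 6 lower, with a median log2 ratio of -0.24, beside 3.88% of all compared genes higher and 4.52% lower in these cells. Isg15 there had 55.3 CPM in yap1 and 122 in WT, a ratio of 0.453 (0.326 to 0.621). In intermediate cells 1 of 32 genes was higher and 2 lower, with a median of -0.07, beside 5.79% and 3.33% of all genes. In macrophages 5 of 33 were higher and 2 lower, with a median of 0.12, beside 4.16% and 6.15%. Nonclassical monocytes had 2 of 31 higher and 0 lower, with a median of 0.00, beside 3.96% and 4.75%. Neutrophils had 0 of 19 higher and 8 lower, with a median of -0.48, beside 16.9% and 4.14%. In T cells 4 of 16 were higher and 0 lower, with a median of 0.23, beside 3.73% and 5.18%, and in B cells 4 of 20 were higher and 1 lower, with a median of 0.12, beside 4.02% and 3.37%. All of these sets come from the same pair of libraries, and the differences between them were not tested.

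**Figure D2:**
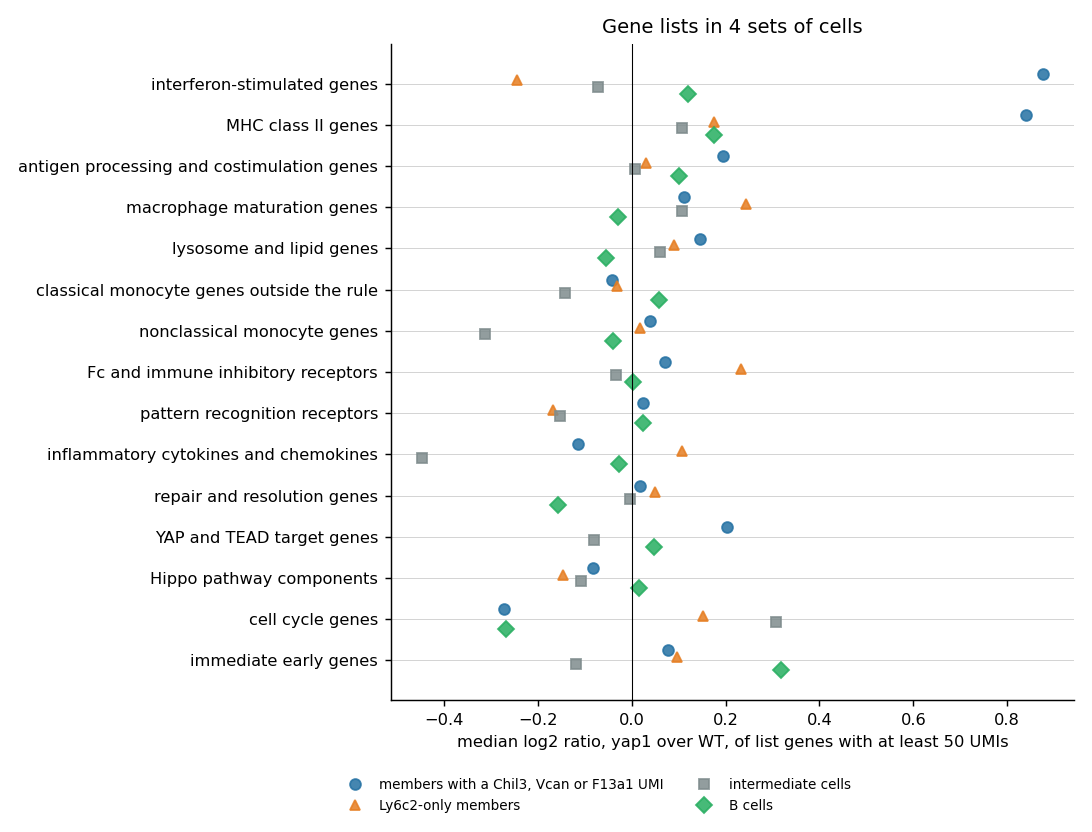
Median log2 ratio (yap1 over WT) of gene lists with at least 5 compared genes, in the members with a Chil3, Vcan or F13a1 UMI, the Ly6c2-only members, intermediate cells and B cells. The interferon list stands at 0.88 in the first of these sets and at -0.24, -0.07 and 0.12 in the other 3.

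Cxcl10, the interferon-induced ligand of Cxcr3, had 157 CPM in yap1 and 23.6 in WT, a ratio of 6.63 (4.99 to 8.98). It reached 5 UMIs in 8 yap1 and 3 WT cells, and the 8 yap1 cells held 94.0% of the yap1 UMIs. All 8 had at least 3 UMIs of both Lyz2 and Ccr2, and 6 had at least 3 summed UMIs of the 4 interferon genes above. Cxcl9, its close relative, had 48 UMIs in yap1 and 2 in WT, a ratio of 20.5 (5.37 to 174), and came from 6 yap1 and 2 WT cells. In intermediate cells Cxcl10 ran the other way, with 103 CPM in yap1 and 194 in WT, a ratio of 0.528 (0.462 to 0.604).

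MHC class II genes, which present peptides to helper T cells, were also higher in the yap1 sums. Of 6 compared genes, 4 were at least 1.5-fold higher and 0 lower, with a median log2 ratio of 0.84. In the same cells 3 of 6 were higher with at least 10 marker UMIs, with a median of 0.55, and 2 of 6 in those free of markers of other lineages, with a median of 0.48. No shares over all genes are given for these subsets. Over all members 2 of 9 were higher and 0 lower, with a median of 0.32, and with at least 10 marker UMIs 0 of 8 were past the bound, with a median of 0.013. H2-Ab1 had 695 CPM in yap1 and 352 in WT, a ratio of 1.98 (1.82 to 2.15). H2-Aa had 726 and 377 CPM (1.93, 1.78 to 2.09), H2-Eb1 442 and 247 (1.79, 1.62 to 1.98), and Cd74, the invariant chain, 2104 and 1174 (1.79, 1.71 to 1.88). The peptide loaders H2-DMa and H2-DMb1 were closer to level, at 1.18 (1.04 to 1.33) and 1.15 (0.974 to 1.36).

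This difference lay in cells with much class II RNA and not in the typical cell. Cells with at least 20 UMIs of H2-Aa, H2-Ab1 and H2-Eb1 numbered 28 in yap1, with 95.1% of these UMIs, and 19 in WT, with 85.2%. The median cell had 0.740 UMIs per 10000 in yap1 and 0.865 in WT. At least 1 UMI was found in 62.5% (55.1 to 69.5%) of yap1 and 71.8% (64.9 to 78.0%) of WT cells. Of the 41 yap1 and 35 WT cells with at least 5 such UMIs, 2 and 7 held at least 3 UMIs of conventional dendritic cell markers, and 1 and 5 of Siglech, Ccr9 or Klk1. Markers of conventional dendritic cells summed to 118 CPM in yap1 and 152 in WT over 15 genes, of which 3 in yap1 and 2 in WT were at 0. Their part in the class II values was not tested. B2m, the light chain of MHC class I, stood at 1.39 (1.34 to 1.44) here and at 1.23 (1.19 to 1.27) in B cells.

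A small group of genes was higher across many yap1 cells. Gatm, the enzyme that makes the creatine precursor guanidinoacetate from arginine and glycine, had 103 CPM in yap1 and 20.5 in WT, a ratio of 5.03 (3.68 to 7.0). It was found in 107 of 184 yap1 cells (58.2%, 50.7 to 65.4%) and 31 of 195 WT cells (15.9%, 11.1 to 21.8%). At 5000 UMIs per cell the shares were 28.6% (22.0 to 35.9%) and 8.99% (5.23 to 14.2%), and in B cells without thinning they were 2.66% and 1.61%. Without the 5 cells of each library richest in Gatm, the ratio was 7.22 (4.84 to 11.2). The difference did not rest on a few cells.

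Gatm was also higher in other myeloid sets, at 266 CPM in yap1 and 61.3 in WT intermediate cells (4.34, 3.63 to 5.22) and at 250 and 120 CPM in macrophages (2.08, 1.85 to 2.35). In B cells it had 8.79 CPM in yap1 and 7.75 in WT (1.13, 0.686 to 1.87). The other genes of creatine and arginine metabolism did not share its direction as a group, with 2 of 14 higher, 1 lower and a median log2 ratio of -0.12. Of these, Arg2, the mitochondrial arginase, had 12.3 CPM in yap1 and 29.7 in WT, a ratio of 0.414 (0.264 to 0.636).

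Ifitm6, a monocyte member of the interferon-induced transmembrane family, had 445 CPM in yap1 and 188 in WT, a ratio of 2.37 (2.12 to 2.65). It was detected in 167 yap1 cells (90.8%, 85.6 to 94.5%) and 146 WT cells (74.9%, 68.2 to 80.8%), and at 5000 UMIs per cell in 78.9% (72.1 to 84.7%) and 59.0% (51.4 to 66.3%). The median cell had 3.70 UMIs per 10000 in yap1 and 1.42 in WT. In intermediate cells the ratio was 1.44 (1.14 to 1.83). Ifitm6 therefore differed in the median cell, whereas the summed Ifit genes and Rsad2 had a median of 0 in both libraries.

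Among Fc and inhibitory receptors, 3 of 26 compared genes were at least 1.5-fold higher in yap1 and 1 lower, with a median log2 ratio of 0.07. Fcgr1, the high-affinity IgG receptor, had 200 CPM in yap1 and 112 in WT, a ratio of 1.79 (1.54 to 2.08), and in intermediate cells 1.05 (0.974 to 1.14). After thinning to 1000 UMIs per cell its ratio here was 1.14. Fcgr4 had 150 CPM in yap1 and 100 in WT, a ratio of 1.5 (1.27 to 1.77), just short of the bound. The low-affinity receptors Fcgr3 and Fcgr2b stood at 1.04 (0.955 to 1.14) and 0.934 (0.833 to 1.05). Pilrb1, at 1.92 (1.41 to 2.63), and Sirpb1c, at 1.51 (1.36 to 1.68), share part of their 3′ end with relatives, so that reads may be split between copies.

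**Figure D3:**
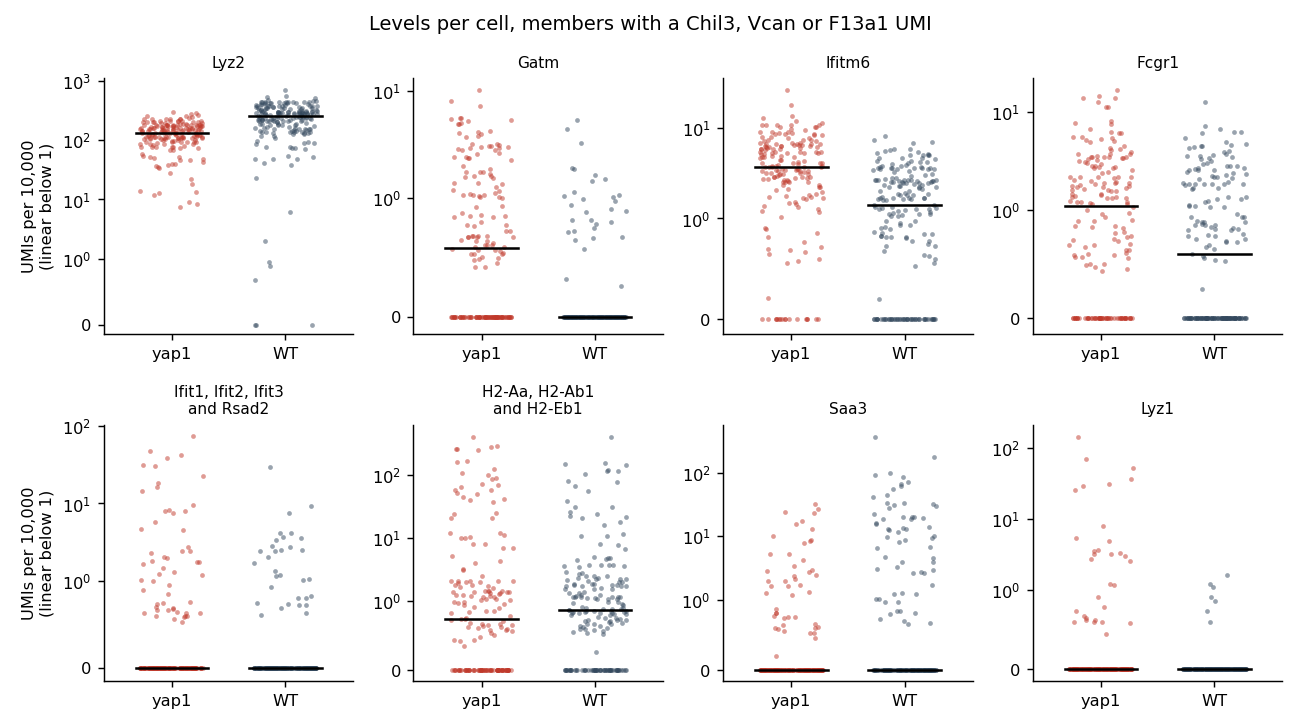
Level per cell, in UMIs per 10000 UMIs of the cell, of selected genes and gene sums in the members with a Chil3, Vcan or F13a1 UMI, yap1 (184 cells) left of WT (195 cells), with a line at the median. Lyz2, Gatm and Ifitm6 differ in the median cell (Lyz2 132 in yap1 and 254 in WT), while the Ifit genes with Rsad2, Saa3 and Lyz1 have medians of 0 in both and differ in the upper tail.

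Genes of maturation towards macrophages or nonclassical monocytes were mixed. Of 28 maturation genes 5 were at least 1.5-fold higher in yap1 and 4 lower, with a median log2 ratio of 0.11. Of 19 nonclassical genes 2 were higher and 2 lower, with a median of 0.04. Cx3cr1, the fractalkine receptor that increases as monocytes mature, had 188 CPM in yap1 and 111 in WT, a ratio of 1.69 (1.45 to 1.97). Lpl, a lipase, had 154 and 72.6 CPM (2.12, 1.76 to 2.55). Axl and Mertk, receptors through which dying cells are taken up, were also higher in yap1, Axl at 66.7 and 38.5 CPM (1.73, 1.34 to 2.26) and Mertk at 15.3 and 7.0 CPM (2.19, 1.20 to 4.17). Hes1, a Notch target, had 64.1 CPM in yap1 and 30.2 in WT, a ratio of 2.13 (1.6 to 2.85), but in intermediate cells it had 39.3 and 62.2 CPM, a ratio of 0.632 (0.503 to 0.796).

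Some maturation and lipid genes were lower. Fabp4, a fatty acid carrier, had 15.3 CPM in yap1 and 52.5 in WT, a ratio of 0.291 (0.199 to 0.418), and it was also lower in B cells, at 0.378 (0.263 to 0.534). The lipid-sensing nuclear receptor Nr1h3 had 20.1 and 35.9 CPM (0.562, 0.391 to 0.801), and the transcription factor Runx3 had 55.2 and 94.4 CPM (0.584, 0.471 to 0.723), while Runx3 in B cells was at 1.11 (0.931 to 1.33). Hmox1, the heme-degrading enzyme, had 135 and 206 CPM (0.657, 0.572 to 0.755). Spp1, osteopontin, had a ratio of 0.243 (0.183 to 0.319), but 1 WT cell held 83.3% of the WT UMIs, and without the 5 richest cells of each library the ratio was 1.83 (0.918 to 3.85).

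Inflammatory cytokines and chemokines gave a divided picture, with 2 of 24 compared genes at least 1.5-fold higher in yap1 and 5 lower, and a median log2 ratio of -0.11. The higher genes were Cxcl9 and Cxcl10. Il1b, the secreted pyrogen, had 1486 CPM in yap1 and 2181 in WT, a ratio of 0.681 (0.653 to 0.711), just short of the bound. Its ratio was 0.526 (0.510 to 0.542) in intermediate cells and 0.490 (0.472 to 0.508) in macrophages. It was also 0.510 (0.402 to 0.642) in B cells, where Il1b had 27.7 CPM in yap1 and 54.3 in WT. The part of free RNA in these values was not tested.

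The neutrophil attractants did not share a direction. Cxcl2 had 1500 CPM in yap1 and 1311 in WT, a ratio of 1.14 (1.09 to 1.20), and Cxcl1 13.8 and 63.0 CPM, a ratio of 0.219 (0.148 to 0.316), from 7 yap1 and 13 WT cells. Tnf stood at 1.08 (0.718 to 1.62), and the costimulatory ligand Tnfsf9 at 0.503 (0.380 to 0.663). Ccl8 had 0 UMIs in yap1 and 146 in WT, all from 1 WT cell. In intermediate cells 12 of 27 genes of the list were at least 1.5-fold lower and 1 higher, beside 3.33% and 5.79% of all genes, and in macrophages 17 of 28 were lower and 3 higher, beside 6.15% and 4.16%. These counts were not compared by a test.

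Saa3, an acute-phase protein made by activated myeloid cells, was the most strongly lower gene of the list with cells in both libraries. It had 122 CPM in yap1 and 1069 in WT, a ratio of 0.114 (0.101 to 0.128). It reached 5 UMIs in 13 of 184 yap1 and 40 of 195 WT cells, and 20 UMIs in 5 yap1 and 25 WT cells, with up to 50 UMIs in 1 yap1 cell and 711 in 1 WT cell. Of the 40 WT cells 37 had at least 3 Ccr2 UMIs, and of the 13 yap1 cells 11 did. At 5000 UMIs per cell, 16% (10.9 to 22.3%) of yap1 and 30.9% (24.2 to 38.2%) of WT cells held a Saa3 UMI. Without the 5 richest cells of each library the ratio was 0.107 (0.0894 to 0.128). In intermediate cells, Saa3 had 174 CPM in yap1 and 188 in WT (0.926, 0.821 to 1.05), and in macrophages 108 and 230 CPM (0.468, 0.417 to 0.525).

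**Figure D4:**
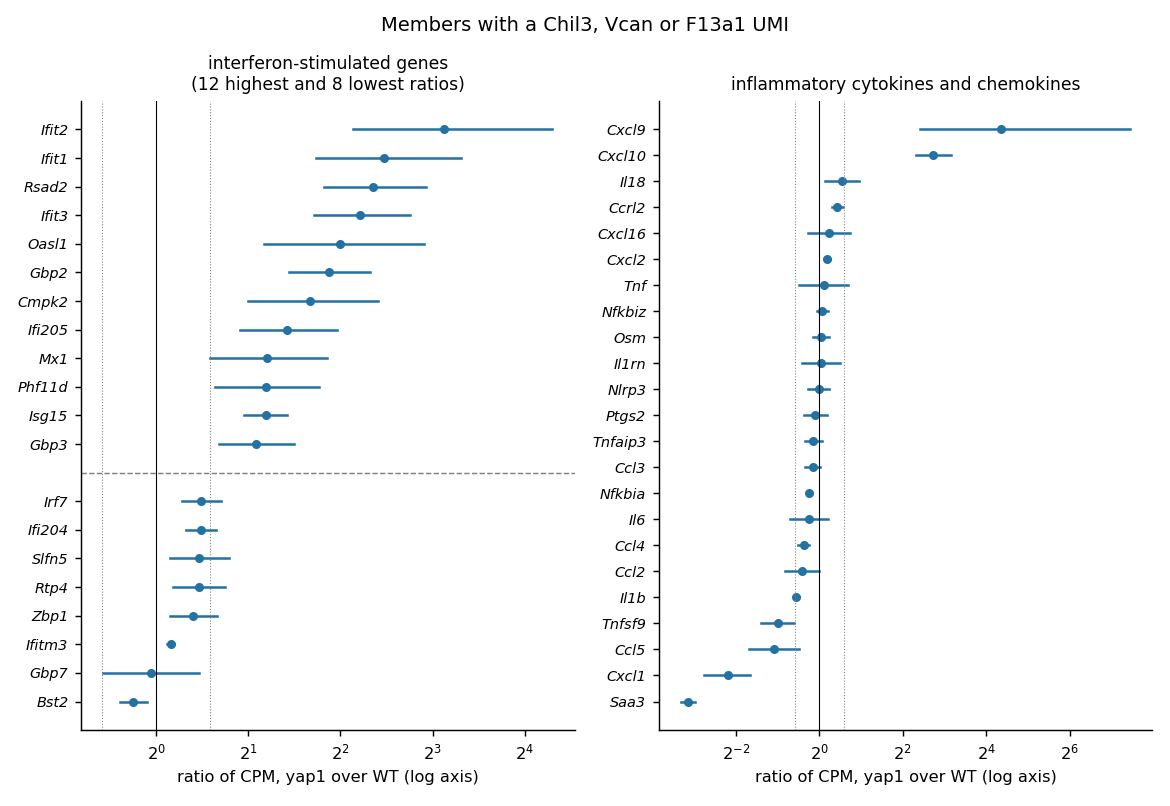
Ratio of yap1 over WT on a log axis, with 95% counting intervals, in the members with a Chil3, Vcan or F13a1 UMI, for the 12 highest and, below a dashed line, the 8 lowest of the 29 compared interferon-stimulated genes (left) and for the compared inflammatory genes (right). Dotted lines mark 1.5-fold in either direction, and Ccl8 is left out because it had 0 UMIs in yap1. The 12 highest interferon genes lie above the upper line, and Saa3 (0.114) and Cxcl1 (0.219) lie lowest of the inflammatory genes.

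Both lysozyme genes stood apart. Lyz2, the lysozyme of macrophages and the locus that carries Cre in the yap1 mice, had 13649 CPM in yap1 and 24376 in WT, a ratio of 0.560 (0.553 to 0.567). The median cell had 132 UMIs per 10000 in yap1 and 254 in WT. The ratio was 0.479 (0.473 to 0.486) in intermediate cells, 0.574 (0.565 to 0.582) in macrophages, and 0.680 (0.579 to 0.797) in B cells, where Lyz2 had 64.1 CPM in yap1 and 94.3 in WT. Lyz1, the Paneth cell lysozyme next to Lyz2 in the genome, had 590 UMIs in yap1 and 8 in WT, a ratio of 62.9 (31.7 to 146), in 32 of 184 yap1 and 7 of 195 WT cells. Of its yap1 UMIs, 80% lay in 4 cells that held at least 20 each, with up to 229 in 1 cell. Lyz1 was at 397 CPM in yap1 and 27.7 in WT intermediate cells (14.3, 11.1 to 18.8), and at 289 and 7.0 CPM in macrophages (41.3, 26.9 to 67.0).

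Lyz1 and Lyz2 lie on the minus strand of chromosome 10 at 117287797 to 117292868 and 117277331 to 117282321 in GENCODE M21. They share part of their sequence: of the 451 50-base words at the 3′ end of the longest Lyz1 transcript, 17.7% also occur in Lyz2. The rest of the transcripts was not compared. No label says how reads that fit both were counted, so Lyz1 counts are uncertain. Over all members, 28 genes within 5 Mb of Lyz2 were compared. Lyz1 and Mdm1 were at least 1.5-fold higher and 0 lower, which is 7.14% beside 8.67% of all compared genes in either direction. Of 10 compared genes within 5 Mb of Yap1 (chromosome 9, 7931999 to 8004596, minus strand), 0 were past the bound.

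Yap1 and its pathway were hardly measurable. Its relative Wwtr1, also called TAZ, had 2 UMIs in all yap1 members and 1 in WT members. The classical targets Ctgf and Cyr61 had 0 UMIs each in yap1, and 7 and 1 in WT. Of 21 Hippo pathway components, 10 had enough UMIs in the members with a Chil3, Vcan or F13a1 UMI, and 0 were past 1.5-fold either way, with a median log2 ratio of -0.08. Of 25 YAP and TEAD target genes 8 were compared, with a median of 0.20. Axl and Birc5 were the 2 higher and 0 were lower. Birc5, a survival and mitosis gene, had 71.6% of its yap1 and 92.2% of its WT UMIs in 5 cells.

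Cell cycle genes also came from few cells. A UMI of Mki67 or Top2a was found in 20 of 184 yap1 cells (10.9%, 6.77 to 16.3%) and 13 of 195 WT cells (6.67%, 3.60 to 11.1%), and in B cells in 3.05% and 3.13%. Of 23 compared cycle genes 3 were at least 1.5-fold higher in yap1 and 8 lower, with a median log2 ratio of -0.27. When every cell was weighted equally the median was 0.26, so the direction depended on how cells are summed.

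Granule and other secreted defence genes had a median log2 ratio of -0.06, but not all were level. Of 20 compared genes 2 were higher and 5 lower, beside 4.2% and 5.54% of all compared genes in these cells. A UMI of Elane, Mpo, Prtn3, Ctsg, Camp, Ngp or Ltf was found in 51.1% (43.6 to 58.5%) of yap1 and 49.7% (42.5 to 57.0%) of WT cells. Slpi, an inhibitor of neutrophil elastase, had 319 CPM in yap1 and 578 in WT, a ratio of 0.553 (0.507 to 0.603). The alarmin S100a9 had a ratio of 3.15 (2.72 to 3.67), but 5 yap1 cells held 82.7% of its yap1 UMIs, and without the 5 richest cells of each library it was 0.976 (0.764 to 1.25). Neutrophil markers, 15 genes, summed to 1149 CPM in yap1 and 920 in WT, with 2 and 3 genes at 0.

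Among pattern recognition receptors 1 of 29 compared genes was higher and 5 lower, with a median log2 ratio of 0.02. The C-type lectins Clec4d and Clec4e, which sense mycobacterial glycolipids and dead cells, had 49.2 and 312 CPM in yap1 and 82.2 and 473 CPM in WT. Their ratios were 0.599 (0.476 to 0.752) and 0.660 (0.603 to 0.723), and in intermediate cells 0.566 (0.468 to 0.684) and 0.549 (0.491 to 0.615). Pecam1, the adhesion molecule CD31, had 10.1 CPM in yap1 and 28.4 in WT, a ratio of 0.354 (0.217 to 0.563), beside 0.780 (0.708 to 0.859) in B cells. Immediate early genes (0 of 23 past the bound in either direction) and respiratory chain genes (1 of 59 higher, 0 lower) were level, with medians of 0.08 and -0.02.

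Several of the lowest ratios were not particular to these cells. Wdr89 had a ratio of 0.113 (0.0972 to 0.131) here and 0.108 (0.0980 to 0.119) in B cells. Nme2, a nucleoside diphosphate kinase, had 0.105 (0.0819 to 0.132) and 0.113 (0.0854 to 0.146), and Gng10, a G protein subunit, 0.114 (0.0645 to 0.190) and 0.140 (0.0741 to 0.244). At the 3′ end of the longest transcript of Nme2 and Gng10, 98.9% and 96.7% of 50-base words also occur in transcripts of other genes. For Wdr89 it was 31.0%, so the counts of these genes are uncertain.

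Markers of T, NK and B cells were sparse in the members with a Chil3, Vcan or F13a1 UMI, and those of some other cell types were not. T cell markers summed to 9.69 CPM in yap1 and 38.9 in WT over 10 genes, NK and innate lymphoid markers to 23.1 and 45.0 over 12, and B cell markers to 20.5 and 35.0 over 9. Plasmacytoid dendritic cell markers summed to 668 CPM in yap1 and 1132 in WT over 10 genes, 8 of them at least 1.5-fold lower, and Siglech had 38 UMIs in yap1 and 176 in WT. Kupffer cell markers summed to 413 CPM in yap1 and 591 in WT over 15 genes, with 4 and 3 genes at 0. Hemoglobin genes summed to 2005 CPM in yap1 and 17.9 in WT, and 1 yap1 cell held 98.4% of the yap1 UMIs. The part of these cells and of free RNA in the values above was not tested.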

How the data were processed

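Per the labels, droplet single-cell RNA libraries were made from liver nonparenchymal cells of yap1 and wild-type mice, 1 library each, pooling 3 mice. The files deposited by the authors hold whole-number UMI counts per gene and barcode, not normalized. Per the submitters' processing notes, Bowtie 0.12.2, Seurat and the mm10 build were used. The role of each tool is not stated.

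Barcodes with at least 500 UMIs and at most 20% mitochondrial UMIs were kept, and members were chosen by summed marker counts. Raw counts were summed per library and scaled to CPM. Genes with at least 50 UMIs in both libraries together were compared by their ratio, with an exact conditional binomial 95% interval. Shares have Clopper-Pearson intervals. Intervals cover counting error only: a few cells can hold most UMIs of a gene, and the spread between cells and mice is not in them. With 1 library per genotype there is no test. The number of libraries limits the precision of every comparison, and low counts also limit that of genes with few UMIs.

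The genes named are the rule genes, Yap1, Wwtr1, Lyz1, Lyz2, Drd2 and Ccr2, up to 3 members per list with the largest log2 ratio, the 12 highest and 12 lowest ratios among genes with at least 200 UMIs, the 15 most abundant genes and the 15 genes highest over other barcodes. Gene symbols on more than 1 row of the files (Itgam, Apoc2 and Tead2) were left out of the lists. Other list members were named after their values had been seen, to show a list's range. The members and the 37 lists were chosen with earlier results of these data known. No doublet caller was applied in the main values, since the automatic threshold of Scrublet marked 0.141% of yap1 and 0.0818% of WT barcodes. Leaving out the 4% with the highest scores was tried instead. Alternatives covered cell and gene filters, marker minimums, scaling, thinning, cell weights, left-out cells and purity. Gene positions are from GENCODE M21, and promoter windows from RefSeq, GRCm38.p6. Calculations used scanpy 1.11.5, scipy 1.17.1, matplotlib 3.10.9 and pandas 2.3.3 under Python 3.11.15, and were tested on simulated data. The simulated counts were independent draws per gene and library sum, without single cells. They did not cover genes whose UMIs lie in a few cells.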

Additional observations from a re-analysis of the deposited data

Results flagged for a closer look

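The interferon-stimulated genes differed between the 2 subsets of the chosen cells. Their median log2 ratio, yap1 over WT, was 0.88 over 29 genes in the members with a Chil3, Vcan or F13a1 UMI, with 19 genes at least 1.5-fold higher and 0 lower. It was -0.24 over 16 genes in the Ly6c2-only members, with 0 higher and 6 lower. The opposite sign of the values drew attention to this result. With 1 library per genotype the difference was not tested. The Ly6c2-only members carry markers of plasmacytoid dendritic cells in 73.9% of yap1 and 73.4% of WT cells, and the part of this in the result was not tested.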

How the results depend on the processing

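No paired analysis was possible because each genotype has 1 library, and for the same reason no replicate could be left out. A list median counted as moved when it shifted by at least the median half-width of the counting intervals of its genes. That bound is the width for a typical gene and not for a median. For the interferon list in the members with a Chil3, Vcan or F13a1 UMI it was 0.44. A shift there from 0.88 to 0.52, in cells free of the chosen markers, thus did not count. Over all members, 55 of 570 alternatives moved one of 36 list medians. In the members with a Chil3, Vcan or F13a1 UMI, called the smaller set here, 33 of 478 moved one of 35. Among named genes 21 of 1999 alternatives reversed a ratio over all members and 7 of 1474 in the smaller set. A reversal was counted only for ratios past 1.5-fold whose interval did not reach level. The totals also include the other named genes, for which a change of direction was not counted. In the smaller set the interferon median ran from 0.20, where 4 genes were left after thinning to 1000 UMIs, to 0.93.

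Counts of genes past 1.5-fold depend on the genes that can be compared: 112 higher and 104 lower of 1809 after thinning to 1000 UMIs, 98 and 95 with at least 200 UMIs per gene, and 240 lower in the Ly6c2-only members. In the Ly6c2-only members the share ratio was 0.827, and the medians were -0.24 for interferon-stimulated, 0.18 for MHC class II and -0.30 for YAP and TEAD target genes. The MHC class II median was 0.013 with at least 10 marker UMIs and 0.13 after thinning. It was 0.68 in the 51 yap1 and 71 WT cells free of the chosen markers of other lineages. Without members holding 3 UMIs of other markers it was 0.79, and in the members with a Chil3, Vcan or F13a1 UMI 0.84. Classical monocyte genes, at 0.06 over all members, stood at -0.20 in cells free of markers of other lineages, -0.061 without members holding 3 UMIs of other markers and -0.043 in the smaller set.

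Reversed ratios were as follows, and the cause was not tested. Without the 5 richest cells Spp1 was 2.18, S100a9 0.829, Apoa2 0.399 and Ttr 0.688, and in the smaller set Spp1 was 1.83 and S100a9 0.976. In the members with a Chil3, Vcan or F13a1 UMI Irf4 was 0.938, Apoa2 0.332 and Ttr 0.853. With at least 10 marker UMIs Arg1 was 0.112, Apoa2 0.468 and Ttr 0.978, and Arg1 0.129 in the smaller set. Without the highest doublet scores Apoa2 was 0.507 and Ttr 0.637. Without members holding other markers Apoa2 was 0.399 and Ttr 0.848, and in the smaller set Runx2 was 1.42. Thinned, Lipa was 0.846, and 0.823 in the smaller set. With cells weighted equally Rrm2 was 1.09. Gzma was 0.997 with at least 3 marker UMIs. In cells free of the chosen markers of other lineages Gzma was 0.861, and in the smaller set Pcna was 1.20 and Runx2 1.86. In the Ly6c2-only members S100a9 was 0.494, Cxcl10 0.478 and Rsad2 0.399.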

Other observations

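Genes of natural killer cells were higher in the yap1 Ly6c2-only members. Gzma, a granule protease, had 436 CPM in yap1 and 94.6 in WT Ly6c2-only members, a ratio of 4.61 (3.73 to 5.73), and 3 and 2 UMIs in the members with a Chil3, Vcan or F13a1 UMI. Of 10 compared NK and innate lymphoid markers 8 were at least 1.5-fold higher in the yap1 Ly6c2-only members and 0 lower, beside 3.88% and 4.52% of all compared genes in these cells. Over all members 4 of 10 were higher and 0 lower. With at least 3 marker UMIs 1 of 10 was higher and 1 lower, with no share over all genes given at that minimum. The Gzma ratio over all members, 3.71 (3.01 to 4.60), was then 0.997 (0.870 to 1.14). In the 51 yap1 and 71 WT members free of the chosen markers of other lineages it was 0.861 (0.585 to 1.26). Gzma was not among those markers, and these members still held 117 Gzma UMIs. At least 3 UMIs of Ncr1, Klrb1c or Gzma were found in 10 of 92 yap1 and 7 of 128 WT of these cells. Plasmacytoid dendritic cell markers in them were level, with 0 of 10 past 1.5-fold and sums of 16103 CPM in yap1 and 15669 in WT.

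Some repair genes came from very few members with a Chil3, Vcan or F13a1 UMI. Areg, an epidermal growth factor ligand, had 72 UMIs in yap1 and 15 in WT, from 3 cells each. Il10, the anti-inflammatory cytokine, had 44 and 18 UMIs, from 7 cells each, and Arg1, the cytosolic arginase, 46 and 19 UMIs, from 6 cells each.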
